A study of Mus musculus with 14 samples.

Results

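The Krüppel-like factor (KLF) genes followed here are 9 members of a family of transcription factors, measured in epidermal stem cells (EpdSCs) before and after SOX9 was induced in them: *Klf2*, *Klf3*, *Klf4*, *Klf5*, *Klf6*, *Klf7*, *Klf9*, *Klf10* and *Klf13*. They were chosen by name, as the rows of the deposited table with these gene symbols, and make up 9 of its 54332 genes. All 9 were among the 13110 genes tested, whose mean over the libraries was 1 TPM (transcripts per 1000000 transcripts) or more. TPM divide the estimated reads of a gene by its length and scale each library to the same total, so levels can be set side by side between genes. The values carry no read depth, so no counting error can be given.

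The libraries were made from back-skin EpdSCs of CD1 mice labelled male and carrying K14rtTA and TRE-myc-Sox9, in which doxycycline (DOX) turns on a MYC-tagged *Sox9* in cells that use the *Krt14* promoter. There were 2 replicates at each of 5 timepoints: D0 at postnatal day 21 before DOX, W1 at day 28, W2 at day 35, W6 at day 63, and W12 after 12 weeks of DOX. Every group, D0 included, carried both transgenes. Cells were sorted as negative for CD31, CD45, CD117, CD140a and CD34 and high for CD49f and Ly6A. At W12 the skin had been transplanted from newborn pups onto immunocompromised *Nude* female hosts, whereas up to W6 the mice were not grafted, so grafting and 12 weeks of SOX9 cannot be told apart. The mice also grew older as DOX went on, and RNA of age-matched mice without the *Sox9* transgene was not analysed here.

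KLF proteins bind CACCC and GC-rich sites in DNA through 3 zinc fingers at their carboxy-terminal end, and differ in the domains that lie before these fingers. KLF2, KLF4, KLF5, KLF6 and KLF7 mostly act as activators, KLF3 recruits the CtBP co-repressors, and KLF9, KLF10 and KLF13 recruit the co-repressor SIN3A. In the epidermis, KLF4 is known for its part in terminal differentiation and the skin barrier and KLF5 for its expression in the basal layer, and several family members are induced within minutes to hours of a stimulus, as immediate-early genes are.

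The transgene entry MYC-SOX9 had 89.6 and 45.6 TPM before DOX and 606 to 3414 TPM in the 8 libraries after it. The 7 markers of basal epidermis summed to 31948 to 48529 TPM in every library, most of it *Krt14* (19997 to 37666 TPM) and *Krt5* (7343 to 14774 TPM). Of these 7, 1 fell at W2 against D0, 6 at W6 and 4 at W12, when 1 rose (*Ly6a*); without D0 replicate 2, described next, 5 of the falls at W6 and all 4 at W12 were called and the rise was not. D0 replicate 2 listed *Xist*, which is transcribed from the inactive X chromosome, at 4.61 TPM and had only 0.0278 TPM of *Ddx3y*, a gene of the Y chromosome, which goes against its label of male. Both W12 libraries listed *Xist* (5.51 and 3.50 TPM) together with *Ddx3y* (11 and 12.9 TPM). Each library was therefore left out in turn, and calls of the genes described below that were lost without D0 replicate 2 are named beside the result. A W12 difference cannot be given without both W12 libraries.

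Other gene lists moved with the same timepoints and are given here because they stand beside the KLF results below. The summed level of 22 genes of the immediate-early and stress response, *Junb*, *Fos* and *Egr1* among them, was 39523 and 64663 TPM at D0 and 7220 to 16463 TPM in all later libraries, with no gene of the list at 0 throughout. In the sort that removed CD31-positive cells, the 6 endothelial markers, *Pecam1* (which encodes CD31) among them, summed to 0.0598 to 2.45 TPM from D0 to W6 and to 59.7 and 128 TPM at W12, and *Cdh5* was listed at 0 in all 6 libraries up to W2. The 6 immune markers summed to 20.2 to 36.0 TPM from D0 to W2, to 5.26 and 4.53 TPM at W6, and to 147 and 163 TPM at W12. *Cd74* and *H2-Aa* made up most of that sum, while *Ptprc* (CD45) was at most 0.327 TPM in any library. *Cd34*, a marker of hair follicle stem cells and endothelium that the sort also selected against, was 0.0475 to 5.04 TPM up to W6 and 16.5 and 32.0 TPM at W12. The other 2 markers of hair follicle stem cells did not follow it: *Krt24* was 2.64 and 2.85 TPM at D0 and 0.512 and 0 TPM at W12, where it fell (log2 -1.61, SE 0.43, adjusted p = 0.0171, and not called without D0 replicate 2 or W12 replicate 2), and *Lgr5* was 0.0455 to 5.80 TPM and was not called at W12. Of the 5 fibroblast markers only *Dcn* passed the filter, at 51.2 TPM in W6 replicate 2, 13.2 and 27.2 TPM at W12 and at most 2.06 TPM in the other libraries, and the other 4, *Col1a1* and *Pdgfra* among them, were at most 0.791 TPM in every library.

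The promoter windows of 4 members are shown because these genes stood out by their time courses: *Klf2*, *Klf6* and *Klf9* had their highest mean at D0, their lowest at W6 and a higher one again at W12, whereas *Klf13* had its highest mean at W2 and its lowest at W12. RefSeq windows were found for 7 of the 9 members, on GRCm38.p6, and the 250 bases before the start in RefSeq are printed 5′ to 3′. The *Klf2* and *Klf6* windows end inside these genes as GENCODE places them. Capitals mark matches, on either strand, of CCAAT, of TGANTCA, of the SOX core ATTGTT and of the MEF2 site. TGANTCA allows any base at the centre and so is looser than the AP-1 site itself. The motifs were picked with these windows in view, and a match is a description of the letters only.
*Klf2*, chr8:72318812-72319061, plus strand: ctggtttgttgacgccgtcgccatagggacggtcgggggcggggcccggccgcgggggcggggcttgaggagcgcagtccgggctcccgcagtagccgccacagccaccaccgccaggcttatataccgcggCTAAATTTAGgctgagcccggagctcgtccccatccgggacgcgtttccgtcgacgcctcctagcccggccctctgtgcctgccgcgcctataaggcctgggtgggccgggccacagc
*Klf6*, chr13:5861239-5861488, plus strand: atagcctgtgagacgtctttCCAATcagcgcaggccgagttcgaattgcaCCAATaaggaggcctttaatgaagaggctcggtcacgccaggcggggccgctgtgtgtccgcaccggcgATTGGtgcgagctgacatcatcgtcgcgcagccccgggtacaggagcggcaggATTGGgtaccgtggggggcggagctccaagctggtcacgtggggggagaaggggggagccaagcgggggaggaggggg
*Klf9*, chr19:23140976-23141225, plus strand: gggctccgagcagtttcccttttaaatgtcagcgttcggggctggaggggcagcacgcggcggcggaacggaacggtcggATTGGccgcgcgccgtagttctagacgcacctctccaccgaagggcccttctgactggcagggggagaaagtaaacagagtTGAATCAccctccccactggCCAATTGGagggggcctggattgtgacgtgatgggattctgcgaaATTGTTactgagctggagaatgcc
*Klf13*, chr7:63938916-63939165, minus strand: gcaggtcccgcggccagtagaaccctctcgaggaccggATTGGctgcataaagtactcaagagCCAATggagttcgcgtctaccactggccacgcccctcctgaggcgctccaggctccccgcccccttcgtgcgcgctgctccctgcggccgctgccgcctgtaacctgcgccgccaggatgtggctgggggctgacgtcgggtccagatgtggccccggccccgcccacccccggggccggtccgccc

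CCAAT or its complement was found 4 times in the *Klf6* window, 3 times in that of *Klf9*, where 2 matches overlap, and 2 times in that of *Klf13*. It was absent from the window of *Klf2* and present in 33.8% of 32851 windows of all genes. The *Klf9* window held 1 match of the loose AP-1 form TGANTCA, written TGAATCA (6.75% of all windows held the form), and 1 SOX core match (9.42%). It was the only one of the 7 windows with either. A MEF2 match was found in the *Klf2* window alone, and in 2.92% of all windows. The *Klf2*, *Klf6*, *Klf9* and *Klf13* windows were 71.2%, 64.8%, 59.6% and 71.6% G and C, against a median of 52.4% over all windows. The CACCC box itself was found 1 time each in the windows of *Klf2*, *Klf9* and *Klf13* and not in that of *Klf6*, and 52% of all windows held it.

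At D0, *Klf6* was the highest member in both libraries. *Klf3*, *Klf4* and *Klf5* came next and overlapped in level, and *Klf13* lay below all 3 of them in each library. *Klf9* overlapped both *Klf2* and *Klf10*, the 3 lying between 69.3 and 128 TPM, and *Klf7* was lowest at 5.76 and 5.99 TPM. D0 replicate 2 was higher than replicate 1 for 8 of the 9 members, all but *Klf10*. The 9 genes summed to 2017 and 3201 TPM at D0, 1478 and 1254 TPM at W1, 1479 and 1410.3 TPM at W2, 1183 and 1077 TPM at W6, and 952 and 1040.0 TPM at W12. Each later library was therefore below both D0 libraries, and the 2 W6 and 2 W12 libraries were below all others.

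**Figure D1:**
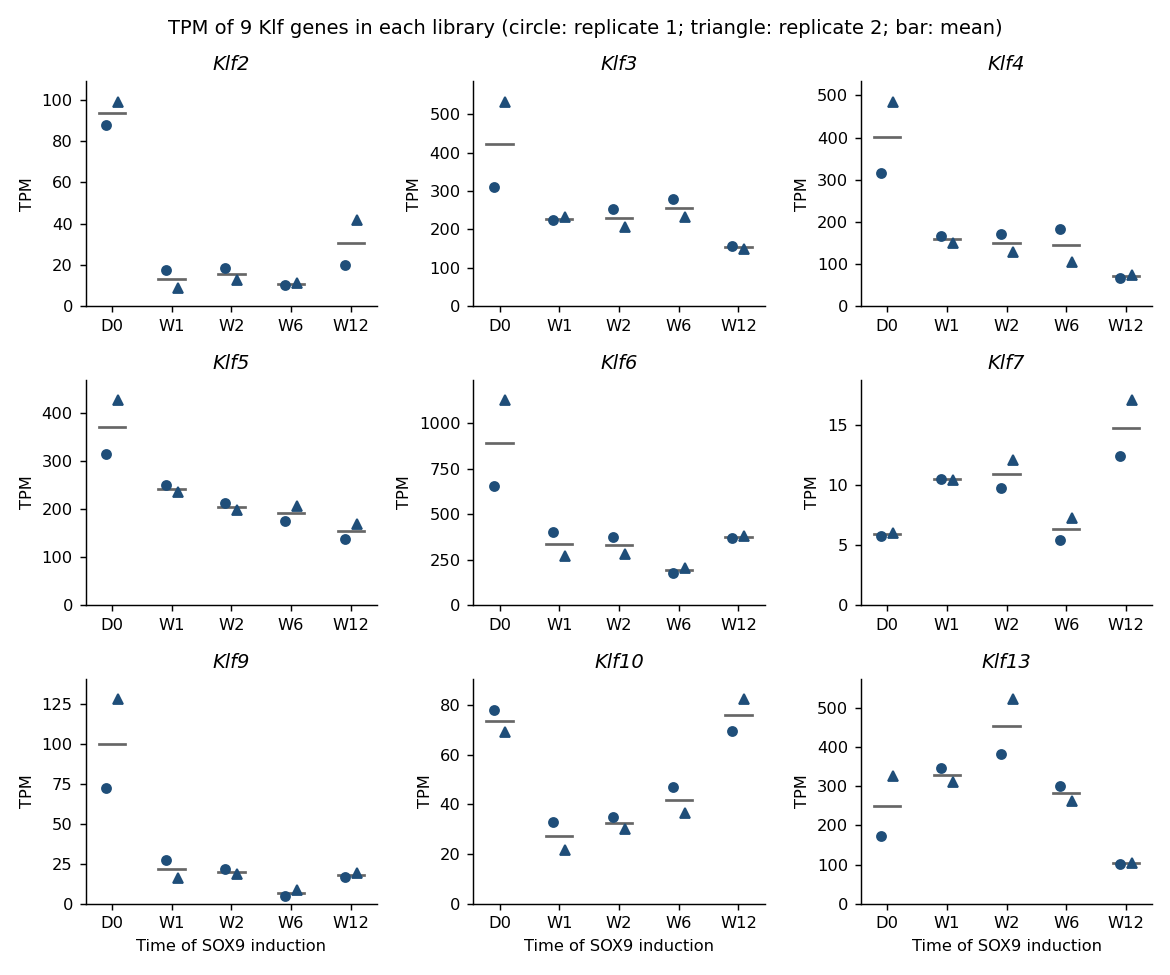
TPM of each of the 9 *Klf* genes (vertical axes, each starting at 0) in the 2 libraries of each timepoint of SOX9 induction (horizontal axes), with circles for replicate 1, triangles for replicate 2 and bars for their mean. *Klf4* and *Klf5* were lowest at W12, *Klf6* and *Klf9* were lowest at W6, and *Klf13* was above its D0 mean at W1 to W6 and lowest at W12.

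Most members were lower than at D0 at every timepoint after DOX. At W1, 5 of the 9 members fell (*Klf2*, *Klf4*, *Klf6*, *Klf9* and *Klf10*) and none rose, where 4.1% of all genes tested were called lower and 5.79% higher. Calls were made in limma's moderated test with Benjamini-Hochberg adjustment over all genes at an adjusted p under 0.05. At W2, 7 members fell, *Klf3* and *Klf5* now included, and 1 rose (*Klf7*), where 6.64% of all genes were called lower and 9.06% higher. At W6, 6 members fell (*Klf2*, *Klf4*, *Klf5*, *Klf6*, *Klf9* and *Klf10*) and none rose, beside 14.1% of all genes called lower and 18.3% called higher. At W12, 7 fell (*Klf2*, *Klf3*, *Klf4*, *Klf5*, *Klf6*, *Klf9* and *Klf13*) and *Klf7* rose, beside 25.1% of all genes called lower and 17.9% called higher. The moderated F test over these 4 comparisons called all 9 members, and 57.5% of all genes.

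The members' median log2 change of TPM + 1 against D0 was -1.30 for W1, -1.16 for W2, -0.94 for W6 and -1.26 for W12, against medians over all genes tested of 0.09, 0.06, 0.08 and -0.08. The 4 comparisons share the D0 libraries, so their likeness is not independent evidence of a fall. In bulk RNA, fewer cells of a type and less RNA per cell cannot be told apart. The immediate-early and stress list was lower than at D0 at the same times: 15 of its 22 genes fell at W1, 13 at W2, 15 at W6 and 16 after 12 weeks, with median log2 changes of -2.28, -2.01, -2.03 and -2.54. In the same list 1 gene rose at W2 (*Hspa1a*, a heat-shock gene, 183 and 116 TPM at D0, 376 and 359 TPM at W2) and 1 at W12 (*Ier3*, 348 and 300.2 TPM at D0, 617 and 835 TPM at W12), and neither rise was called without D0 replicate 2. That of *Hspa1a* held in 5 of 10 removals and that of *Ier3* in 8 of 10. The part of that list's high D0 level in the members' falls was not tested. Without D0 replicate 2, 11 of these 15 were still called at W1, 9 of 13 at W2, 14 of 15 at W6 and 14 of 16 after 12 weeks, and without W1 replicate 2 and W2 replicate 2 in turn 9 were at W1 and 7 at W2. Of the members, the falls called without D0 replicate 2 numbered 3 at W1, 4 at W2, 5 at W6 and 6 after 12 weeks, with 1 rise at each time, which was that of *Klf13* up to W6 and of *Klf7* at W12. Without W1 replicate 2, only 2 were called at W1, and without W2 replicate 2 only 2 at W2.

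**Figure D2:**
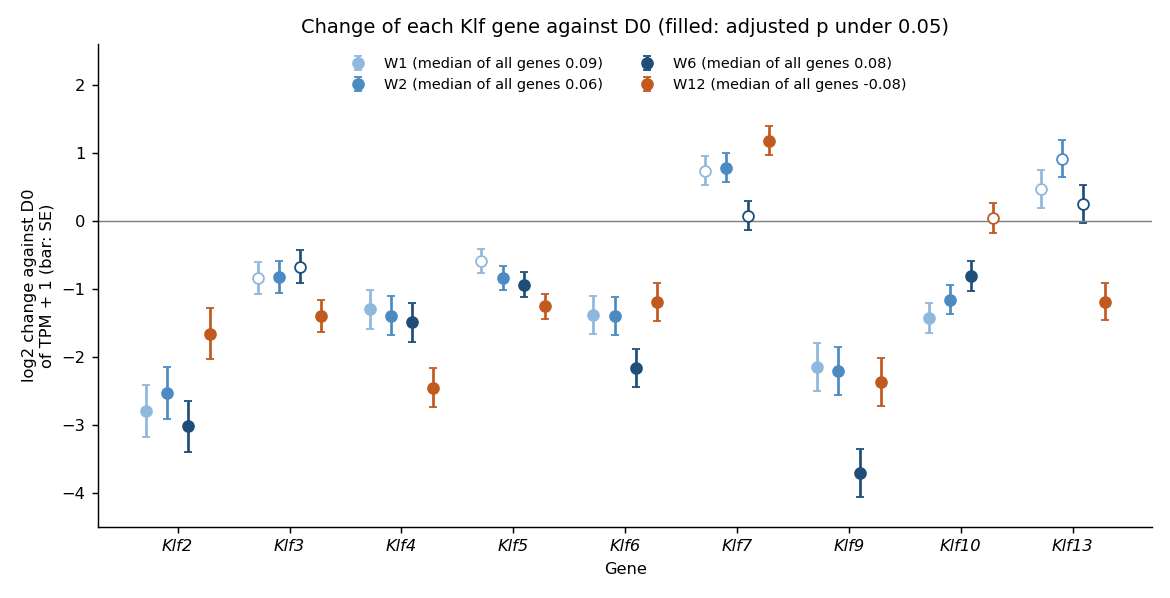
The log2 change of TPM + 1 against D0 (vertical axis; error bars, SE of the limma fit) for each member (horizontal axis) at W1, W2, W6 and W12, with filled points for an adjusted p under 0.05 and the median over all genes tested in the key. *Klf9* at W6 had the largest fall, -3.71, and *Klf7* at W12 the largest rise, 1.18.

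From W1 to W2 limma called 0 of 9 members, and 0 had an unadjusted p under 0.05. Of all genes tested 0.114% were called in either direction, so a count of 0 would be usual for 9 genes and says nothing particular of the members. The members' log2 changes over that week ran from -0.25 (*Klf5*, SE 0.18) to 0.44 (*Klf13*, SE 0.28). From W2 to W6, 1 member fell, *Klf9*, where 8.31% of all genes were called lower. That count was 0 without W2 replicate 1, W2 replicate 2, W6 replicate 1 or either W12 library, and 3 without either D0 library. From W6 to W12, 5 members rose (*Klf2*, *Klf6*, *Klf7*, *Klf9* and *Klf10*) and 2 fell (*Klf4* and *Klf13*), where 6.66% of all genes were called higher and 13.5% lower. The median member changed by 0.86 on the log2 scale from W6 to W12 and the median gene by -0.16, which median-ratio scaling moved to -0.01.

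The number of these 7 calls changed when single libraries were left out, which also leaves fewer libraries for the estimate of the spread. Without W2 replicate 1, for instance, the log2 rise of *Klf2* was 1.37, the same as with all libraries, and only its adjusted p moved. The share of all genes called in these fits is not given here. In limma, none was made without W12 replicate 2, 2 without W12 replicate 1, 2 without W6 replicate 1, 4 without W6 replicate 2 and 3 without either W2 library. With the replicate number as a block, 4 were made.

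Among the members that mostly act as activators, *Klf6*, a broadly expressed gene known to be induced early after injury, was the most abundant at D0. It was listed at 658 and 1128 TPM at D0, 402 and 269.7 TPM at W1, 375 and 282 TPM at W2, 177 and 206 TPM at W6, and 370.1 and 381 TPM at W12. Both D0 libraries were above all others, W1, W2 and W12 overlapped, and both W6 libraries were below all the rest. The log2 change against D0 was -1.38 (SE 0.28, adjusted p = 0.017) at W1, -1.40 (0.28, 0.0123) at W2, -2.17 (0.28, 0.000958) at W6, then -1.20 (0.28, 0.00952) at W12. From W6 to W12, *Klf6* rose by 0.97 (SE 0.28, adjusted p = 0.0418), and its mean at W12 was 0.421 of that at D0. The W1 call was lost without W1 replicate 2 (-1.1, adjusted p = 0.147), the W2 call without W2 replicate 2 (-1.20, 0.103), and the W12 call without D0 replicate 2 (-0.81, 0.0531) or W12 replicate 1 (-1.18, 0.057). The W1 call was also lost without D0 replicate 2 (-1.0, adjusted p = 0.062), the range over 19 alternatives being 0.00616 to 0.147, and the rise from W6 in 11 of 18, each removal of a W2, W6 or W12 library among them, with adjusted p of 0.0168 to 0.169. The fall at W6 held in 19 of 19 alternatives.

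*Klf2*, which encodes a factor known for quiescence in endothelial cells and T cells, had one of the steepest falls. Its level was 87.9 and 99.0 TPM at D0, 17.6 and 8.91 TPM at W1, 18.5 and 12.6 TPM at W2, 10.1 and 11.1 TPM at W6, and 19.9 and 41.7 TPM at W12. The D0 libraries stood above all 8 later ones, and the W12 libraries above the other 6. The change against D0 was -2.80 (SE 0.38, adjusted p = 0.00278) at W1, -2.53 (0.38, 0.00326) at W2, -3.02 (0.38, 0.000796) at W6, then -1.66 (0.38, 0.00838) at W12. The means at W1, W2 and W6 were 0.142, 0.166 and 0.113 of the D0 mean, and these 3 calls held in 19 of 19 alternatives each. The W12 call was lost without W12 replicate 1 (-1.14, adjusted p = 0.0658, range over 18 alternatives 0.00751 to 0.0658).

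The rise of *Klf2* from W6 to W12 was 1.37 (SE 0.38, adjusted p = 0.0362). It was lost in 8 of 18 alternatives (adjusted p of 0.0262 to 0.205), those without either W2 or either W6 library among them, and without W12 replicate 2 it was 0.85 (adjusted p = 0.205). The endothelial markers moved with it, and in the same replicate: *Pecam1* was 0.517 and 1.14 TPM at W6 and 26.1 and 59.8 TPM at W12, *Emcn* was 0.159 and 0.0727 TPM at W6 and 22.9 and 45.5 TPM at W12, and all 3 endothelial markers that could be tested rose. *S1pr1*, a known target of KLF2 that endothelial cells also express, was 0.15 and 0.36 TPM at W6 and 12.7 and 28.4 TPM at W12. Replicate 2 was therefore the higher W12 library for *Klf2*, *Pecam1*, *Emcn* and *S1pr1* alike. It was also the higher for every other member but *Klf3*, so this order is not particular to *Klf2*. From D0 to W6, where *Klf2* fell, the 6 endothelial markers summed to no more than 2.45 TPM. The part of other cells in the level of *Klf2* was not tested at any timepoint.

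**Figure D3:**
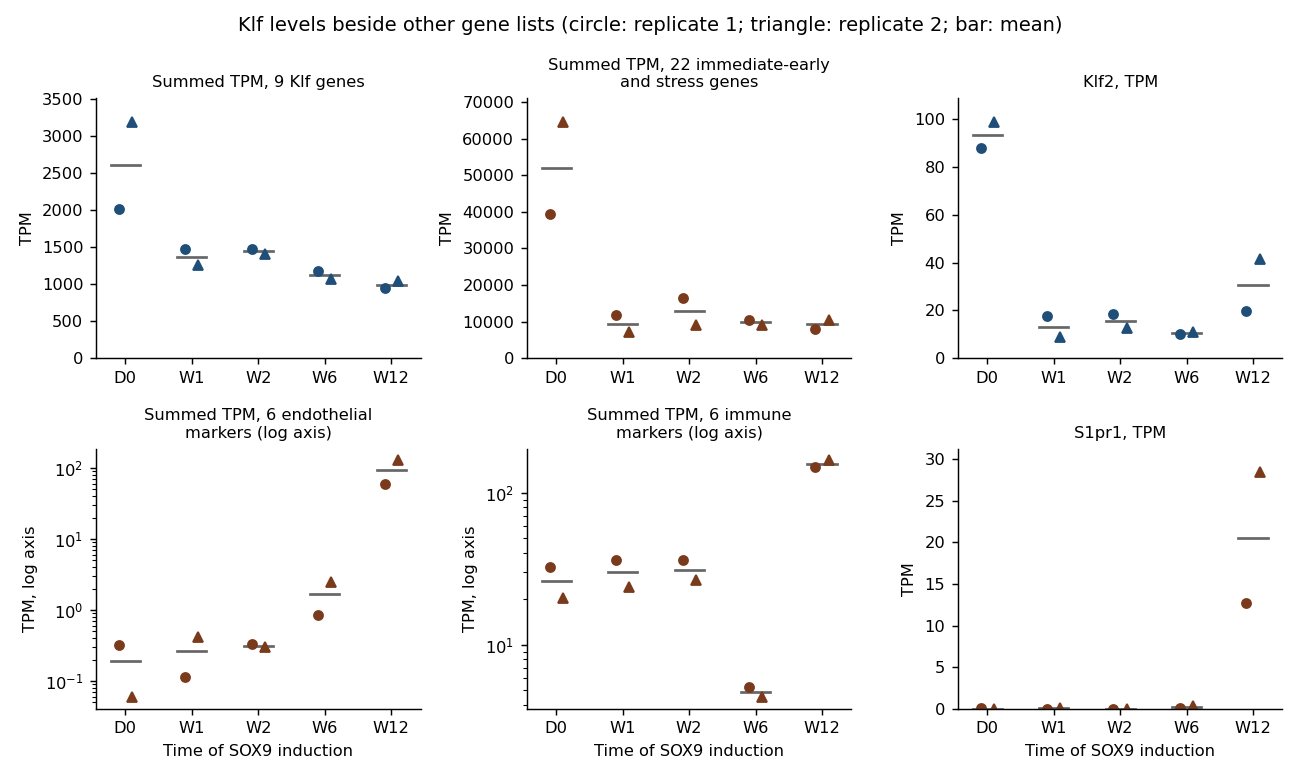
Summed TPM of the 9 *Klf* genes, of 22 immediate-early and stress genes, of 6 endothelial and of 6 immune markers, and TPM of *Klf2* and *S1pr1*, in each library by time of SOX9 induction (circles, replicate 1; triangles, replicate 2; bars, means; the 2 marker panels have log axes, the others start at 0). The immediate-early sum was 39523 and 64663 TPM at D0 and at most 16463 TPM afterwards, and the endothelial sum was 59.7 and 128 TPM at W12 and at most 2.45 TPM before.

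*Klf4*, the family member best known for barrier formation, was listed at 317 and 486 TPM at D0, 168 and 150.0 TPM at W1, 171 and 129 TPM at W2, 183 and 106 TPM at W6, and 66.7 and 75.2 TPM at W12. The W1, W2 and W6 libraries overlapped, with D0 above and W12 below them. It changed by -1.30 (SE 0.29, adjusted p = 0.0235) at W1, -1.40 (0.29, 0.0137) at W2, -1.49 (0.29, 0.00583) at W6, then -2.45 (0.29, 0.000352) at W12 against D0. *Klf4* thus reached 0.177 of its D0 mean at W12, the call there holding in 18 of 18 alternatives. The step from W6 to W12 was -0.96 (SE 0.29, adjusted p = 0.0459) and was lost in 13 of 18 alternatives (adjusted p of 0.015 to 0.219), those without W1 or W2 libraries, W6 replicate 1 or either W12 library among them. At W1 the call was lost without D0 replicate 2 (-1.0, adjusted p = 0.102), W1 replicate 1 (-1.38, 0.0918) or W1 replicate 2 (-1.22, 0.162), and at W2 without D0 replicate 2 (-1.09, 0.0678) or W2 replicate 2 (-1.19, 0.11); over all alternatives the adjusted p were 0.0117 to 0.162 and 0.00633 to 0.11.

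Beside the falls of *Klf4* stood the markers of differentiating epidermis, which did not move as one. The 9 markers summed to 5803 and 1926 TPM at D0, to 3813 to 7399 TPM at W1 and W2, and to 11989 to 13603 TPM at W6 and W12. Much of the sum was *Krtdap*, at 3314 and 647 TPM at D0, 10419 and 10171 TPM at W6, then 11060 and 9986 TPM at W12. *Krt10*, an early keratin of differentiation, was 1335 and 871 TPM at D0, 568 and 966 TPM at W6, then 1041 and 700.0 TPM at W12, and was not called against D0. *Lor*, which encodes a protein of the cornified envelope, was 15.4 and 19.4 TPM at D0 and 2.00 and 2.05 TPM at W12, where it fell (log2 -2.60, SE 0.43, adjusted p = 0.0019). Of the 9, 3 rose at W1, 3 at W2 and 6 at W6, none falling, and 4 rose and 1 fell (*Lor*) at W12. Of all genes tested, 5.79% were called higher after 1 week, 9.06% at W2, 18.3% at W6 and 17.9% after 12 weeks. Without D0 replicate 2, 1, 3, 4 and 3 of these rises were still called. The W1 count was also 1 without any 1 of the W1, W2 and W12 libraries, the W6 count 4 or 5 with any 1 library left out, and the W12 count 2 without W12 replicate 1. From W6 to W12, where *Klf4* fell again, 2 markers fell (*Lor* and *Flg*), *Lor* not being called without W12 replicate 1 (-2.32, adjusted p = 0.0646) and *Flg* not without W6 replicate 1 (-2.26, 0.053) or W12 replicate 2 (-2.54, 0.07). D0 replicate 1 had the higher differentiation sum and the lower *Klf4* of the 2 D0 libraries.

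*Klf5*, whose product is known in the basal layer and in proliferating epithelial cells, declined in smaller steps. It was at 315 and 427 TPM at D0, 250.2 and 235 TPM at W1, 212 and 197 TPM at W2, 176 and 207 TPM at W6, and 138 and 169 TPM at W12. W2 and W6 overlapped, and the libraries of the other timepoints did not overlap with their neighbours. The change against D0 did not pass the test at W1 (-0.59, SE 0.18, adjusted p = 0.0745) and did at W2 (-0.84, 0.18, 0.0158), W6 (-0.94, 0.18, 0.0056) and W12 (-1.26, 0.18, 0.000928). Over 19 alternatives the W1 change ran from -0.81 to -0.38. The W12 mean was 0.413 of that at D0, called in 18 of 18 alternatives. Without W2 replicate 1 (-0.89, adjusted p = 0.0775), W2 replicate 2 (-0.79, 0.119) or D0 replicate 2 (-0.62, 0.0564) the W2 call was lost (range 0.00601 to 0.119), and without D0 replicate 1 the W1 change passed (-0.81, 0.0212, range 0.0212 to 0.333). Of the 7 basal markers, 6 were called lower at W6 and 4 at W12, beside 14.1% and 25.1% of all genes tested. At W12 the others went different ways: *Ly6a* was called higher (756 and 565 TPM at D0, 1168 and 1109 TPM at W12), and *Krt14* had a higher mean and was not called (29902 and 31097 TPM at D0, 35371 and 37666 TPM at W12, adjusted p = 0.308). *Itga6* had a lower mean and was not called there (195.6 and 289.7 TPM at D0, 166.2 TPM in both W12 libraries). *Trp63*, the p63 gene of the basal layer, was 291 and 654 TPM at D0, 159.9 and 181 TPM at W6, then 126 and 119 TPM at W12 (log2 -1.36 and -1.83, SE 0.31 each, adjusted p = 0.0125 and 0.00231). With 1 library left out, its change ran from -1.94 to -0.77 at W6 and from -2.41 to -1.25 at W12. *Col17a1*, a collagen of hemidesmosomes, was 686 and 1083 TPM at D0, 217 and 320.2 TPM at W6, then 224 and 283 TPM at W12 (log2 -1.70 and -1.77, SE 0.25 each, adjusted p = 0.00178 and 0.000951). Both W12 calls and that of *Col17a1* at W6 held with any 1 library left out, and that of *Trp63* at W6 was lost without W6 replicate 1 (-1.27, adjusted p = 0.0536). The part of the basal markers in the fall of *Klf5* was not tested.

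The ratio of *Klf5* to *Klf4* was 0.994 and 0.879 at D0, 1.49 and 1.57 at W1, 1.24 and 1.53 at W2, 0.962 and 1.95 at W6, and 2.06 and 2.24 at W12. The pair was thus near parity at D0, and *Klf5* was the more abundant in both W12 libraries. The 6 genes of the cell cycle, *Mki67* and *Top2a* among them, summed to 594 and 315 TPM at D0, 241 to 395 TPM at W1 and W2, and 637 to 791 TPM at W6 and W12, so the W12 libraries, lowest in *Klf5*, were not lowest in this sum.

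*Klf7*, known best from the nervous system, was the least abundant member in 8 of 10 libraries and the only one called higher than at D0. Its level was 5.76 and 5.99 TPM at D0, 10.5 and 10.4 TPM at W1, 9.76 and 12 TPM at W2, 5.38 and 7.24 TPM at W6, and 12.4 and 17.0 TPM at W12. D0 and W6 overlapped, W1 and W2 overlapped above them, and both W12 libraries were highest. The change was 0.73 (SE 0.21, adjusted p = 0.0672) at W1, 0.78 (0.21, 0.0404) at W2, 0.08 (0.21, 0.808) at W6, then 1.18 (0.21, 0.00299) at W12, where the mean was 2.50 times that at D0. On this scale the change of a gene at such a low level is understated. Without either W6 library the W1 change passed the test (adjusted p = 0.0465 and 0.0467, range over alternatives 0.0465 to 0.271). The rise at W12 held in 18 of 18 alternatives, that at W2 was lost in 11 of 19 (adjusted p of 0.0282 to 0.263), in each removal of a D0, W1, W2 or W12 library among them. From W6 to W12, *Klf7* rose by 1.1 (SE 0.21, adjusted p = 0.0102), and without W12 replicate 2 by 0.89 (adjusted p = 0.0695, range over alternatives 0.00361 to 0.0724).

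*Klf3*, whose protein represses through CtBP, was called lower at W2 and W12. It was at 311 and 533 TPM at D0, 223 and 231 TPM at W1, 254 and 206 TPM at W2, 279 and 233 TPM at W6, and 157 and 150.2 TPM at W12. Levels from W1 to W6 lay between those of D0 and W12, with W2 overlapping both its neighbours. The change was -0.84 (SE 0.24, adjusted p = 0.061) at W1, -0.83 (0.24, 0.0479) at W2, -0.67 (0.24, 0.0588) at W6, then -1.40 (0.24, 0.00218) at W12. Over 19 alternatives it ran from -1.23 to -0.45 at W1 and from -1.06 to -0.29 at W6. At W2 it was -0.44 without D0 replicate 2. The W12 mean was 0.365 of the D0 mean, called in 18 of 18 alternatives, whereas the W2 call was lost in 15 of 19 (adjusted p of 0.00372 to 0.271), in the removal of each library but D0 replicate 1 among them. Without D0 replicate 1 the changes at W1 and W6 passed too (-1.23, adjusted p = 0.00506, range 0.00506 to 0.242; -1.06, adjusted p = 0.00274, range 0.00274 to 0.292), and without either D0 library so did the step from W6 to W12 (-0.72, adjusted p = 0.0635 with all libraries and 0.0108 without, range 0.0108 to 0.217). In the annotation 2 genes overlap *Klf3*, *Gm20033* on the opposite strand at 2.14 to 13.2 TPM and *C230096K16Rik* on the same strand at 0.895 to 6.7 TPM, both far under the lowest *Klf3* level of 150.2 TPM.

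Of the CtBP genes, *Ctbp1* was 156 and 151 TPM at D0, 146 to 198 TPM from W1 to W6, and 78.9 and 93.1 TPM at W12. *Ctbp1* fell by 0.83 (SE 0.15, adjusted p = 0.00314) at W12 against D0 and, like *Klf3*, had its lowest levels there. *Ctbp2* was 12.1 to 24.9 TPM throughout and was called against D0 only at W6, where it rose by 0.75 (SE 0.17, adjusted p = 0.0111; 0.66 and 0.0542 without D0 replicate 2). The *Ctbp1* call held with any 1 library left out.

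Among the members that recruit SIN3A, *Klf9*, a gene known to be induced by glucocorticoid and thyroid hormone and to vary with the daily clock, fell furthest. Its level was 72.5 and 128 TPM at D0, 27.3 and 15.9 TPM at W1, 21.6 and 18.6 TPM at W2, 4.76 and 8.61 TPM at W6, and 16.7 and 19.0 TPM at W12. D0 was above all later libraries and W6 below all others, with W1, W2 and W12 overlapping. The change was -2.16 (SE 0.35, adjusted p = 0.00653) at W1, -2.21 (0.35, 0.00427) at W2, -3.71 (0.35, 0.000229) at W6, then -2.37 (0.35, 0.00114) at W12. At W6 its mean was 0.0666 of the D0 mean. The calls at W2, W6 and W12 held in all alternatives, and that at W1 was lost without W1 replicate 2 (-1.78, adjusted p = 0.0619, range 0.00613 to 0.0764).

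Between W2 and W6, *Klf9* fell by 1.5 (SE 0.35, adjusted p = 0.0269), and from W6 to W12 it rose by 1.34 (SE 0.35, adjusted p = 0.0297). The fall was lost in 8 of 19 alternatives (adjusted p of 0.0146 to 0.158), being -1.40 without W2 replicate 1, -1.61 without W2 replicate 2 and -1.13 without W6 replicate 1, and was also lost without either W12 library (-1.5, adjusted p = 0.0516 and 0.0515). The rise was lost in 7 of 18 (0.0196 to 0.14), being 0.97 without W6 replicate 1, 1.43 without W12 replicate 1 and 1.25 without W12 replicate 2, and was also lost without either W2 library (1.34, adjusted p = 0.0506 and 0.0504). Its direction held in each of these.

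Other genes known to be induced by glucocorticoid did not all follow *Klf9*. Of 6 on the list, 4 fell at W6 (*Tsc22d3*, *Per1*, *Zbtb16* and *Errfi1*) and 1 rose (*Sgk1*). At that time 14.1% of all genes tested were called lower and 18.3% higher. *Per1*, which is also a clock gene, was 20.8 and 76.7 TPM at D0, 10.7 and 4.34 TPM at W6, and 3.64 and 3.72 TPM at W12. *Sgk1* was 71.0 and 70.1 TPM at D0, 335 and 316 TPM at W2, then 179.6 and 258 TPM at W12. *Fkbp5* was 3.22 and 11.1 TPM at D0 and 18.2 and 45.8 TPM at W2, where it rose (log2 2.07, SE 0.55, adjusted p = 0.0369). *Tsc22d3* (159 and 297 TPM at D0, 50.8 and 60.0 TPM at W6) and *Errfi1* (238 and 481 TPM at D0, 52.1 and 59.4 TPM at W6) were higher in D0 replicate 2, as *Klf9* and *Per1* were. Without that library only *Errfi1* of the 4 falls at W6 was still called (-2.08, adjusted p = 0.00263), those of *Tsc22d3* (-1.51, 0.0907), *Per1* (-1.47, 0.0587) and *Zbtb16* (-0.64, 0.176) being lost. *Tsc22d3* was also not called without W6 replicate 1 (-1.84, adjusted p = 0.056), nor *Per1* without W6 replicate 2 (-1.81, 0.0733), and the *Zbtb16* call held in only 1 of 10 removals. The rise of *Sgk1* at W6 held with any 1 library left out, whereas that of *Fkbp5* at W2 was lost in 6 of 10 removals, those of D0 replicate 1 (1.31, adjusted p = 0.132) and W2 replicate 2 (1.43, 0.243) among them. The hour at which the mice were sampled is not given in the sources used here.

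*Klf13*, which recruits SIN3A as *Klf9* does, followed another course. It was at 172 and 326 TPM at D0, 347 and 312 TPM at W1, 383 and 523 TPM at W2, 301 and 262 TPM at W6, and 102 and 105 TPM at W12. Both W2 libraries were the highest and both W12 libraries the lowest, and D0 overlapped W1 and W6 because its replicates were far apart. Against D0 the change was 0.47 (SE 0.28, adjusted p = 0.322) at W1, 0.91 (0.28, 0.0558) at W2, 0.25 (0.28, 0.522) at W6, then -1.19 (0.28, 0.00895) at W12. Over 18 alternatives the W12 change ran from -1.65 to -0.73. The fall from W6 to W12 was -1.43 (SE 0.28, adjusted p = 0.00977), and W12 was lower than W2 by 2.10 on the log2 scale, at 0.228 of its mean (SE 0.28, adjusted p = 0.000632), a comparison without the D0 libraries that was called with any 1 library left out.

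The early differences of *Klf13* depended on D0 replicate 2. Without it, the changes at W1, W2 and W6 were 0.93 (adjusted p = 0.0321), 1.37 (0.00657) and 0.70 (0.0469), all then called higher, and without D0 replicate 1 that at W6 was -0.21. The adjusted p over alternatives were 0.0321 to 0.983, 0.00657 to 0.309 and 0.0469 to 0.877. The W12 call against D0 was lost without W12 replicate 1 (-1.17, adjusted p = 0.0547, range 0.000659 to 0.0547). The call from W6 to W12 was lost without W6 replicate 1 (-1.34, adjusted p = 0.0516), W12 replicate 1 (-1.41, 0.073) or W12 replicate 2 (-1.46, 0.051), with a range of 0.0016 to 0.073. *Klf13* has 2 overlapping genes on the opposite strand, *Gm27252* at 0.631 to 1.61 TPM and *E030018B13Rik* at no more than 0.0506 TPM.

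*Klf10*, first known as an early gene induced by TGF-beta, was the member whose W12 level overlapped that at D0. It was listed at 78.2 and 69.3 TPM at D0, 32.7 and 21.8 TPM at W1, 35 and 29.9 TPM at W2, 46.9 and 36.4 TPM at W6, and 69.4 and 82.4 TPM at W12. D0 and W12 overlapped and stood above the other 6 libraries, and W6 stood above W2 and W1. The change was -1.43 (SE 0.22, adjusted p = 0.00501) at W1, -1.16 (0.22, 0.00943) at W2, -0.82 (0.22, 0.0219) at W6, then 0.04 (0.22, 0.901) at W12. Over the alternatives the W12 difference ran from -0.08 to 0.16. From W6 to W12, *Klf10* rose by 0.86 (SE 0.22, adjusted p = 0.0274), and against W1 by 1.47 (SE 0.22, adjusted p = 0.00102), the latter called with any 1 library left out.

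The W2 call of *Klf10* was lost without W2 replicate 2 (-1.05, adjusted p = 0.0849, range 0.0085 to 0.0849). That at W6 was lost without D0 replicate 1 (-0.73, adjusted p = 0.0668), D0 replicate 2 (-0.90, 0.0575) or W6 replicate 2 (-0.64, 0.104), with a range of 0.018 to 0.104. The rise to W12 was lost without W6 replicate 2 (0.68, adjusted p = 0.1), W12 replicate 1 (0.98, 0.0922) or W12 replicate 2 (0.73, 0.14), with a range of 0.0225 to 0.14. *Smad7*, a gene that KLF10 is known to repress, was 3.37 and 8.81 TPM at D0 and 1.84 to 4.07 TPM later, and was called in no comparison with D0.

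The make-up of the summed *Klf* level therefore changed with time. *Klf6* made up 32.6% and 35.2% of it at D0, 15.0% and 19.1% at W6, and 38.9% and 36.6% at W12. *Klf13* made up 8.54% and 10.2% at D0, 23.5% to 37.1% from W1 to W6, and 10.7% and 10.1% at W12. In 5 of the 6 libraries from W1 to W6 *Klf13* was the most abundant member, and in the other libraries *Klf6* was. The ratio of *Klf13* to *Klf6* was 0.262 and 0.289 at D0, 0.863 and 1.16 at W1, 1.02 and 1.85 at W2, 1.70 and 1.27 at W6, and 0.275 and 0.275 at W12, so that the D0 and W12 libraries lay close together in this ratio and those between were higher. *Klf4* made up 15.7% and 15.2% at D0 and 7.01% and 7.24% at W12, and *Klf10* rose in share from 3.87% and 2.16% to 7.29% and 7.92%. The share of *Klf3* was 14.4% to 23.6% and that of *Klf5* 13.3% to 19.2% over the libraries. No test was made of these shares, which are not independent of each other.

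**Figure D4:**
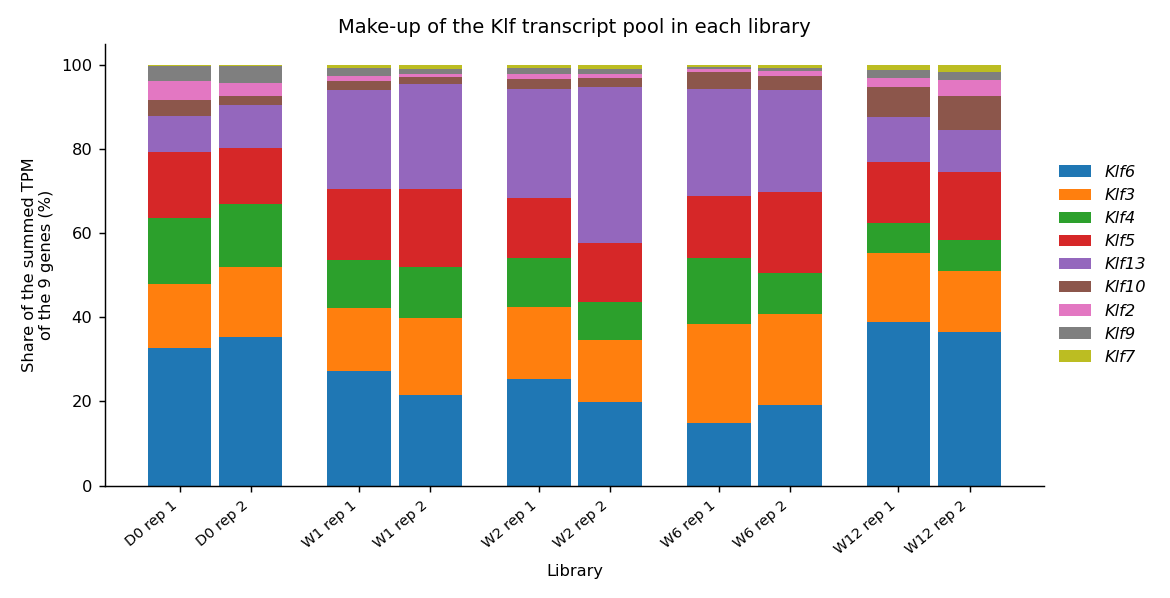
Share of the summed TPM of the 9 *Klf* genes (vertical axis, %) taken by each gene in each of the 10 libraries (horizontal axis), as stacked bars. *Klf13* took 8.54% and 10.2% at D0, up to 37.1% at W2, and 10.7% and 10.1% at W12, and *Klf6* took 15.0% and 19.1% at W6 and over 30% at D0 and W12.

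At W12 *Klf6* was again the highest member. *Klf5* and *Klf3* came next and overlapped, *Klf13* followed, *Klf10* and *Klf4* overlapped below it, and *Klf2*, *Klf9* and *Klf7* were lowest, the last pair overlapping. Among the 9, *Klf4* ranked 2 and 3 in the D0 libraries and 6 in both W12 libraries, and *Klf10* ranked 7 and 8 at D0 and 5 at W12.

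Over the 10 libraries, *Klf6* and *Klf9* had the most similar courses of log2(TPM + 1), with Pearson's r of 0.977, followed by *Klf3* and *Klf4* (0.954), *Klf4* and *Klf5* (0.916) and *Klf2* and *Klf6* (0.911). The most opposed pairs were *Klf3* and *Klf7* (-0.811), *Klf4* and *Klf7* (-0.749) and *Klf10* and *Klf13* (-0.737). These r describe 10 libraries that share 5 timepoints, among them a D0 pair far from the rest, and carry no test. In the promoter windows printed above, those of *Klf6*, *Klf9* and *Klf13* hold CCAAT matches and that of *Klf2* holds none. The r with *Klf6* was 0.977 for *Klf9*, -0.13 for *Klf13* and 0.911 for *Klf2*. A link between these matches and the courses was not tested.

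By the same measure, the genes outside the family most like each member were found. For *Klf2* they were *Rassf1* (r 0.984), *Adm* (0.971) and *Sertad1* (0.97), and for *Klf6* they were *Usp53* (0.975), *D16Ertd472e* (0.973) and *Errfi1* (0.971). *Klf9* shared 2 of these, with *D16Ertd472e* (0.98) and *Usp53* (0.979) beside *Cblb* (0.978). *Pml* was the gene most like both *Klf3* (0.965) and *Klf4* (0.983), from 10.1 and 14.3 TPM at D0 to 4.31 and 4.37 TPM at W12. The others of *Klf3* were *Zfp185* (0.959) and *Ampd3* (0.952), and of *Klf4* *Fasn* (0.966) and *Arnt* (0.965). *Klf5* was most like *Wdr41* (0.98), *Nexn* (0.978) and *Mbp* (0.973), and *Klf7* like *Sdf4* (0.986), *Creb3* (0.93) and *Pcdhb16* (0.93). *Klf10* was most like *St3gal6* (0.975), *Pmaip1* (0.959) and *Id1* (0.956), the last a target of BMP signalling that was 239.5 and 220.1 TPM at D0, 52.7 and 40.1 TPM at W1, and 249 and 263 TPM at W12. *Klf13* was most like *Polr2a* (0.985), *Zfp358* (0.977) and *Ints9* (0.975). *Polr2a*, the largest subunit of RNA polymerase II, was 6.08 and 9.42 TPM at D0, 12.5 and 13.6 TPM at W2, then 2.75 and 2.69 TPM at W12. All carry n = 10 and were picked as the highest among 13110 genes.

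Of the 8 other *Klf* genes, 4 were tested and 4 were too low (*Klf1*, *Klf8*, *Klf14* and *Klf17*, at most 1.60 TPM). Of those tested, 1 fell at W1, 1 fell and 1 rose at W2, 2 fell and 1 rose at W6, and 3 fell at W12. Among all genes tested, 4.1%, 6.64%, 14.1% and 25.1% were called lower at W1, W2, W6 and W12. At W2 and W6, 9.06% and 18.3% were called higher. *Klf11*, the closest relative of *Klf10*, was 34.7 and 60.8 TPM at D0, 19.2 and 12.7 TPM at W1, 20.2 and 19.1 TPM at W2, 10.3 and 11 TPM at W6, and 10.2 and 11.8 TPM at W12. Unlike *Klf10*, it was still lower than at D0 at W12, by 1.98 on the log2 scale (SE 0.28, adjusted p = 0.000827). *Klf16* fell from 24.9 and 53.1 TPM at D0 to 7.15 and 6.15 TPM at W12 (log2 -2.29, SE 0.37, adjusted p = 0.0017). Both W12 calls held with any 1 library left out. Without D0 replicate 2 the falls of *Klf11* at W2 (-0.79, adjusted p = 0.0882), *Klf16* at W6 (-0.93, 0.104) and *Klf15* at W12 (-0.66, 0.0702) were not called. The *Klf11* call at W1 was lost without W1 replicate 2 (-1.22, adjusted p = 0.104), that at W2 without either W2 library (-1.23 and -1.15, 0.103 and 0.131), and the *Klf16* call at W6 without W6 replicate 2 (-1.01, 0.0915). *Klf12* was 1.49 to 3.03 TPM in all libraries and was not called against D0. *Klf17* was listed at 0 in all 6 libraries up to W2 and at 0.246 and 0.597 TPM at W6 and 0.91 and 1.60 TPM at W12.

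*Klf15*, known for its part in metabolism and as a gene induced by glucocorticoid, rose and then fell. It was at 2.97 and 3.90 TPM at D0, 5.10 and 7.03 TPM at W1, 15.6 and 15.1 TPM at W2, 13.8 and 13.3 TPM at W6, and 1.38 and 1.63 TPM at W12. W2 and W6 were above all other libraries and W12 below them. The change was 1.89 (SE 0.21, adjusted p = 0.000767) at W2, 1.72 (0.21, 0.000657) at W6, then -0.82 (0.21, 0.0126) at W12 against D0, and -2.54 (0.21, 0.000128) from W6 to W12. The rises at W2 and W6 and the step from W6 to W12 held with any 1 library left out, and the W12 call against D0 was also lost without W12 replicate 1 (-0.74, adjusted p = 0.0769). Its W12 libraries were its lowest, as those of *Klf13* were.

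**Figure D5:**
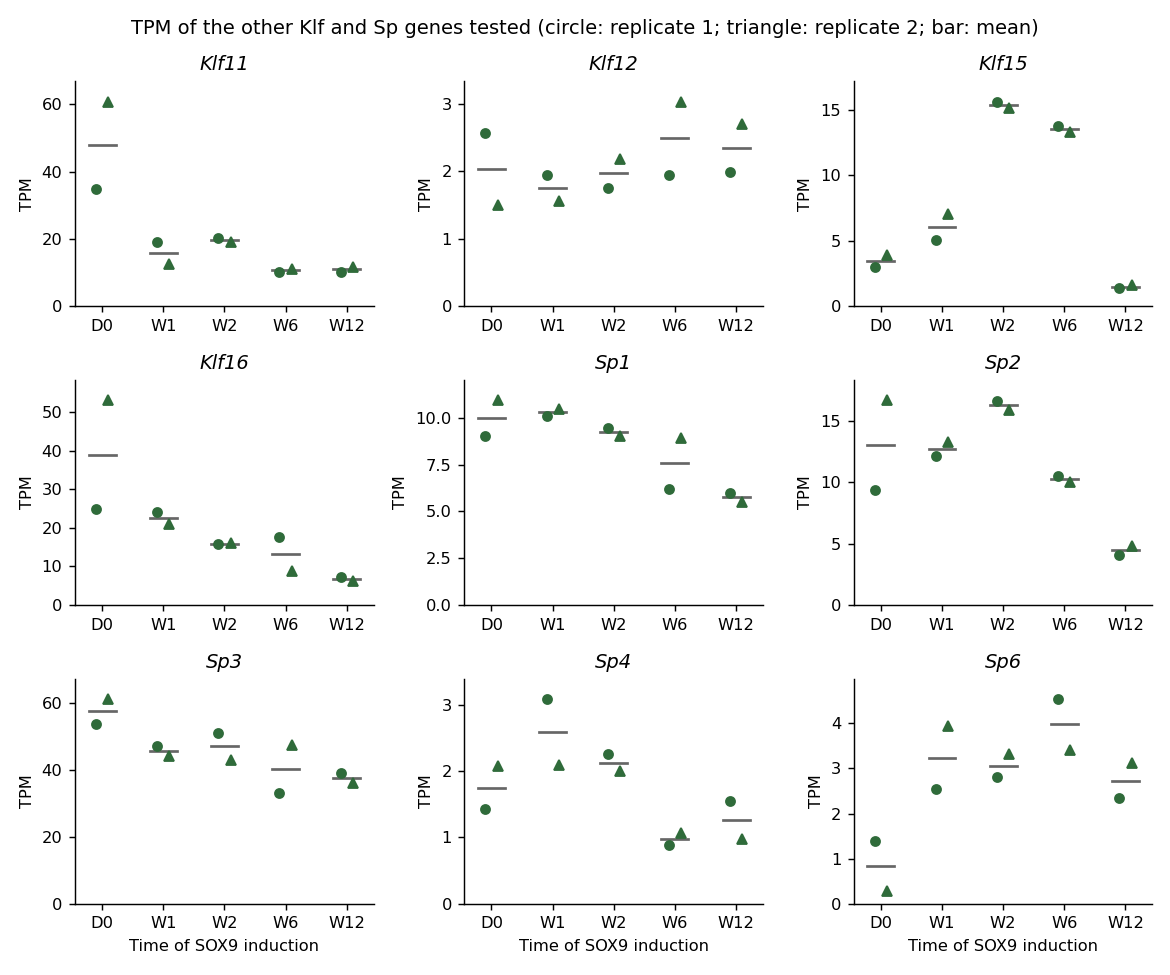
TPM of the 4 other *Klf* and 5 *Sp* genes tested (vertical axes, each from 0) in each library by time of SOX9 induction (circles, replicate 1; triangles, replicate 2; bars, means). *Klf15* stood at 13.3 to 15.6 TPM at W2 and W6 and at 1.38 and 1.63 TPM at W12, and *Klf11* and *Klf16* were highest at D0.

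The SP factors share the zinc fingers of the KLF family and bind the same GC-rich sites. Of 9 *Sp* genes, 5 were tested, and 1 rose at each timepoint against D0, *Sp6*, which is known in ectodermal organs. Among all genes tested, 5.79%, 9.06%, 18.3% and 17.9% were called higher at W1, W2, W6 and W12, and 25.1% lower at W12. *Sp6* was 1.38 and 0.292 TPM at D0 and 2.34 to 4.54 TPM later, with log2 changes of 1.25 (SE 0.32, adjusted p = 0.0446) at W1, 1.21 (0.32, 0.0377) at W2, 1.49 (0.32, 0.00958) at W6, then 1.08 (0.32, 0.026) at W12. The D0 libraries of *Sp6* were far apart, and without D0 replicate 2 none of its 4 calls was made (0.81, 0.77, 1.05 and 0.64, adjusted p = 0.161, 0.152, 0.0527 and 0.159). The calls of *Sp6* at W1 and W2 were also lost without any 1 of the W1, W2 and W12 libraries (adjusted p of up to 0.283 and 0.206), and that at W12 without either W12 library (0.0658 and 0.132). At W12, *Sp1*, *Sp2* and *Sp3* fell, by 0.69, 1.32 and 0.60 on the log2 scale (adjusted p of 0.0227, 0.00321 and 0.0322), the call of *Sp2* holding with any 1 library left out and those of *Sp1* and *Sp3* being lost without D0 replicate 2 (-0.57 and -0.51, adjusted p = 0.112 and 0.135) or either W12 library, and that of *Sp3* also without either W1 library (0.0521 in both). *Sp3*, the most abundant of them, was 53.7 and 61.1 TPM at D0 and 39.1 and 35.9 TPM at W12. *Sp4* was 0.879 to 3.08 TPM and was not called against D0, and *Sp5*, *Sp7*, *Sp8* and *Sp9* were at most 0.163 TPM.

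Of 6 genes for co-repressors and ubiquitin ligases that act on KLF proteins, *Sin3a* was 13.3 and 18.6 TPM at D0 and 7.24 and 7.61 TPM at W12, where it fell by 0.99 (SE 0.21, adjusted p = 0.00569). *Sin3b* rose at each timepoint, from 101 and 83.3 TPM at D0 to 155 and 160.03 TPM at W12 (log2 0.77, SE 0.14, adjusted p = 0.00261). These W12 calls of *Sin3a* and *Sin3b* held with any 1 library left out, whereas the W1 call of *Sin3b* held in only 3 of 10 removals, being lost without D0 replicate 2 (0.39, adjusted p = 0.107) or any 1 of the W1, W2 and W12 libraries (adjusted p of up to 0.202), and its W2 call was lost without W2 replicate 2 (0.73, 0.0731). *Fbxw7*, whose product marks KLF5 and other KLF proteins for degradation, was 24.6 and 25.1 TPM at D0 and 9.54 to 13.8 TPM at W1 and W2, where it fell (log2 -1.26, SE 0.28, adjusted p = 0.0251 at W1; -0.99, 0.28, 0.0471 at W2). Without D0 replicate 2 neither *Fbxw7* call was made (-1.24 and -0.97, adjusted p = 0.0838 and 0.131), the W1 call holding in 6 of 10 removals and the W2 call in 2 of 10 (adjusted p of up to 0.135 and 0.245). *Wwp1*, another ligase for KLF5, was 3.94 to 8.64 TPM and was not called against D0. Over the 6 genes, 1 rose and 1 fell at W1 and at W2, 2 rose at W6, and 1 rose and 2 fell at W12. The shares of all genes tested called higher were 5.79%, 9.06%, 18.3% and 17.9% at W1, W2, W6 and W12. Those called lower were 4.1%, 6.64%, 14.1% and 25.1%.

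Of 7 genes known as KLF targets, 6 were tested. *Cdkn1a*, a cell-cycle inhibitor activated by KLF4 and KLF6, fell at each timepoint against D0, from 971 and 1539.6 TPM at D0 to 559 and 604 TPM at W1, 330.2 and 361 TPM at W2, 528 and 300.3 TPM at W6, and 419 and 459 TPM at W12 (log2 -1.07, -1.82, -1.61 and -1.48; SE 0.28 each; adjusted p = 0.0471, 0.00385, 0.00375 and 0.00371). The *Cdkn1a* call at W1 held in only 3 of 10 removals, being lost without D0 replicate 2 (-0.74, adjusted p = 0.173) or any 1 of the W1, W2 and W12 libraries (adjusted p of up to 0.193), and the later ones held with any 1 library left out. *Thbd*, a target of KLF2 in endothelium, rose at W2, W6 and W12, from 9.38 and 7.45 TPM at D0 to 18.9 and 23.7 TPM at W12 (log2 1.24, SE 0.27, adjusted p = 0.00632), and so moved the other way from *Klf2*. Its calls at W2 and W6 were lost without D0 replicate 2 (0.91 and 1.12, adjusted p = 0.118 and 0.0526), and that at W12 without W12 replicate 2 (1.08, 0.0526). The W2 call of *Thbd* was also lost without W2 replicate 2 (0.69, adjusted p = 0.22) or either W12 library (0.0516 and 0.052). The libraries of W2 and W6 had an endothelial sum of 0.30 to 2.45 TPM, and the part of endothelial cells in the level of *Thbd* was not tested. *Lgals3* rose at W12 (2239.8 and 2191 TPM against 1469 and 1359 TPM at D0; log2 0.65, SE 0.15, adjusted p = 0.00905, and 0.0536 without W12 replicate 1), *S1pr1* did as described above, and *Ccnd1* and *Smad7* were not called. *Ccl5*, which KLF13 drives in T cells, was too low to test, at no more than 0.337 TPM.

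The members lie on 9 different chromosomes of GRCm38, the build the files were made on, and each is a protein-coding gene. The positions named here are those of GENCODE M21: *Klf6* at chr13:5861482-5870394, *Klf9* at chr19:23141226-23168134 and *Klf2* at chr8:72319033-72321656 on the plus strand, and *Klf13* at chr7:63886351-63938915 on the minus strand. The number of annotated transcripts ran from 1 (*Klf2*) to 9 (*Klf3*), and levels are sums over them. The RNA kit's strand setting is not given in the sources used here, so reads of *Klf3*, *Klf7* and *Klf13* and of the genes annotated opposite to them may not have been told apart.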

How the data were processed

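RNA of FACS-sorted EpdSCs was sequenced after low-input amplification in 10 libraries, 2 biological replicates at each of 5 timepoints, grouped by the sample titles. The 4 embryonic placode libraries of the series entered no comparison, since their deposited table holds only the authors' own fold changes and p-values, which were not used.

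The authors trimmed reads, quantified them with Salmon 1.4.0 against GENCODE transcripts of GRCm38 with the transgene added, summed them to genes with Tximport 1.12.3 and deposited TPM per gene. The deposited TPM sum to 1000000 per library, so depth is unknown and precision rests on the 2 replicates. The study's methods name DESeq2 on counts, a test that TPM do not permit.

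The 13110 genes whose mean reached 1 TPM were tested as log2(TPM + 1) with limma 3.58.1 in R 4.3.3: the means of the 5 timepoints in all 10 libraries, eBayes with a trend, and Benjamini-Hochberg adjustment over all genes, called at an adjusted p under 0.05. The pseudocount of 1 understates changes of low genes. Levels are TPM, differences are log2(TPM + 1), and a fold is the ratio of mean TPM. Members, gene lists, markers and tests were chosen with earlier results of these data known. The text names all 9 members, all other *Klf* and *Sp* genes, the 3 genes outside the family with the highest r for each member, and genes of the other lists as examples, several of them, such as *Fbxw7*, *Per1*, *Emcn* and *Thbd*, chosen after their values were seen.

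Alternatives were a pseudocount of 0.1, no filter beyond a TPM above 0, scaling by median ratios, quantile normalization, an eBayes step with no trend, a fit of only the 4 libraries compared, a replicate block and each library left out in turn. Crossed replicate blocks, a fit without both W12 libraries, and each library left out for calls of the other genes and for members between W1 or W2 and later times were chosen after seeing the data. Promoter windows were those of RefSeq (GRCm38.p6) and gene positions those of GENCODE M21. Sequences were searched in Python 3.11.15, and figures drawn with matplotlib 3.10.9.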

Additional observations from a re-analysis of the deposited data

How the results depend on the processing

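With 2 libraries per timepoint, a call is often lost when 1 library is left out, and TPM carry no depth, so the precision of a low level is unknown. Of the 35 member calls in the 4 comparisons with D0 and the 3 between neighbouring timepoints, none changed direction in any alternative tried, and 120 of their 650 alternative values missed the threshold. The 9 further member calls, of W6 or W12 against W1 and of W12 against W2, were recomputed only with 1 library left out, which changed no direction.

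The number of members called changed as follows, and the share of all genes called in these fits is not given here. With all genes above 0 TPM tested, it was 2 at W1 and 3 at W2 against D0, 0 from W2 to W6 and 2 from W6 to W12. With only the 4 libraries compared in the fit, it was 1 at W1, 3 at W2 and 3 at W6 against D0, 0 from W2 to W6 and 2 from W6 to W12. Median-ratio scaling and quantile normalization each gave 2 from W2 to W6, and a fit without both W12 libraries gave 0 there. With 1 library left out, the counts ran from 2 to 7 at W1, 2 to 7 at W2, 5 to 6 at W6 and 5 to 8 at W12 against D0, from 0 to 3 between W2 and W6, and from 0 to 8 between W6 and W12. Without W1 replicate 2 the W1 count was 2, without W2 replicate 2 the W2 count was 2, without D0 replicate 2 or W2 replicate 1 it was 5, and without W12 replicate 1 the W12 count was 5.

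Differences that were not called changed sign in places. From W1 to W2, median-ratio scaling turned *Klf6* to 0.0241, and quantile normalization turned *Klf3* to -0.0202 and *Klf9* to 0.000706. With 1 library left out, the W1 to W2 changes ran from -0.19 to 0.72 for *Klf2*, -0.14 to 0.16 for *Klf3*, -0.30 to 0.11 for *Klf4*, -0.31 to 0.27 for *Klf6*, -0.0875 to 0.187 for *Klf7*, -0.43 to 0.32 for *Klf9* and -0.0156 to 0.549 for *Klf10*. Those from W2 to W6 ran from -0.48 to 0.30 for *Klf4* and -0.214 to 0.0156 for *Klf5*. Those from D0 to W6 ran from -0.11 to 0.26 for *Klf7* and -0.21 to 0.70 for *Klf13*, and that of *Klf10* from D0 to W12 ran from -0.0828 to 0.162.

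The replicate block, which rests only on the numbers in the titles, gave counts of 5, 7, 6 and 8 against D0, 0 from W1 to W2, 1 from W2 to W6 and 4 from W6 to W12. Same-numbered libraries did not deviate together (correlations from -0.129 to 0.182), so the numbers are not taken to pair the samples. With crossed numbers at D0 the block gave 6, 8, 7 and 8, and at W6 it gave 1 and 6. The causes of these changes were not tested.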
